A study of Mus musculus with 2 samples.

Results

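The TRBV13 genes are 3 closely related variable genes of the mouse T cell receptor β chain, known by an older name as the Vβ8 family (TRBV13-3 is Vβ8.1, TRBV13-2 is Vβ8.2 and TRBV13-1 is Vβ8.3). A clonotype, that is, a receptor rearrangement defined by the DNA at its V-D-J junction (the CDR3), was counted as a member when TRBV13-1, TRBV13-2 or TRBV13-3 was listed as its best V gene. There were 805 such clonotypes among 3881 TCRβ clonotypes, and among 19558 clonotypes of both chains, in 2 libraries. The thymus library held 335 of them, 86 with TRBV13-1, 158 with TRBV13-2 and 91 with TRBV13-3. The spleen library held 470, with 113, 239 and 118 in the same order. Every one was joined to a TRBJ gene, so 0 of them had a J gene of another chain.

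The cells were iT cells, T cells raised in mice from an embryonic stem cell line (iR9-ESC, C57BL/6, CD45.2) that carries a doxycycline-inducible Runx1-p2a-Hoxa9 cassette in Rosa26. Both libraries shared this line, which was selected by drug resistance, and the recipients, irradiated B-NDG mice (CD45.1, 8 to 10 weeks old) that make no T cells of their own. Naïve CD4 or CD8 single-positive iT cells, given as 15000 for each library, were sorted at week 6 after transplantation from the thymus (CD45.2+, lineage negative, TCRγδ-) or from the spleen (CD45.2+, CD62L+, CD44-). Because there was 1 library for each tissue and the gates differed, no difference between the tissues has a replicate check, and tissue and gate cannot be told apart; the number of mice behind a library is not given in the sources used here. The thymus library had 1782199 TCRβ reads in 1640 TCRβ clonotypes and the spleen library 2765086 reads in 2241. At these depths 3 reads made up 0.000168% and 0.000108% of the TCRβ reads, and as no molecular identifiers were stated, intervals cover counting error only.

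A β chain is built in a thymocyte by joining a D to a J segment and then a V segment to the DJ product, with nucleotides trimmed from the ends and others added by terminal transferase. Rearrangements that lose the reading frame cannot make a chain but can still be transcribed in a cell that carries a second, functional allele. In mice the Vβ8 genes are widely used, TRBV13-2 is prominent among the invariant natural killer T cells, and Vβ8 chains are recognised by the superantigen staphylococcal enterotoxin B.

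The 3 genes lie on the plus strand of chromosome 6 (GRCm38, GENCODE M21), each with 2 exons and each interleaved with a gene of the TRBV12 family. TRBV13-1 spans chr6:41116007-41116468, TRBV13-2 spans chr6:41121396-41121832 and TRBV13-3 spans chr6:41130147-41130585. The part of each that enters the CDR3 is the end of exon 2. Their transcripts were 88.6% identical between TRBV13-1 and TRBV13-2, 85.9% between TRBV13-1 and TRBV13-3, and 90.6% between TRBV13-2 and TRBV13-3. The germline starts of the CDR3, 16 bases each, are shown because TRBV13-2 differs from the other genes in 1 codon, set in capitals, that reads glycine in TRBV13-2 and serine in the others.
TRBV13-1: tgtgccagcAGTgatg
TRBV13-2: tgtgccagcGGTgatg
TRBV13-3: tgtgccagcAGTgatg
Within the CDR3, TRBV13-1 and TRBV13-3 thus cannot be separated, and the call between them rests on bases upstream of it. At base 10 of the CDR3, 100% of the TRBV13-2 clonotypes that reached it carried the germline base of that gene in both libraries. For TRBV13-3 the share was 100% in thymus and 99.1% in spleen, and for TRBV13-1 it was 95.2% and 92.8%. The TRBV13-1 exceptions were 4 and 8 clonotypes of at most 19 and 21 reads. Best V genes of tied score, counted by the first listed, occurred in 5 TRBV13-1 clonotypes in thymus and 6 in spleen. For TRBV13-2 and TRBV13-3 there were 0 in both libraries. No TRBV13 junction was read with a different V gene in the same library (0 for each gene). Whether the assembly allows 1 junction to be listed with several V genes is not given in the sources used here. The 0 is therefore no check of the V calls.

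The leading clonotypes are shown next because they carry most of the reads of the family. The bases between the aligned end of V and the aligned start of J, which hold the D segment and any inserted nucleotides, are in capitals. The germline D segments they can draw on are these.
TRBD1: gggacagggggc
TRBD2: gggactgggggggc
The 4 most abundant TRBV13-3 clonotypes were the same sequences, in the same order, in thymus and spleen.
TRBV13-3/TRBJ2-4: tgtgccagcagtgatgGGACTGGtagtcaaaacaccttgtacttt
TRBV13-3/TRBJ1-6: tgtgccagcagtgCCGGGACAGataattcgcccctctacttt
TRBV13-3/TRBJ1-2: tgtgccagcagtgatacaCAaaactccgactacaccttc
TRBV13-3/TRBJ1-5: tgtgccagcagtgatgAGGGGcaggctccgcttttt
The TRBV13-3/TRBJ2-4 junction, of 45 nucleotides, kept all 16 germline V bases, held 7 bases assigned to TRBD2 and had 0 inserted nucleotides. TRBV13-3/TRBJ1-6 and TRBV13-3/TRBJ1-5 also had 0 inserted nucleotides as aligned. In TRBV13-3/TRBJ1-6 the alignment counted 9 bases with TRBD1, of which the first 2 are not in the germline segment and were assigned as palindromic bases of its end. Such bases cannot be told apart from inserted ones by sequence. In TRBV13-3/TRBJ1-2 no D was assigned between V and J, which were 2 bases apart as aligned. Its marked V stretch runs 2 bases past the germline end and differs from the germline at base 16. The true V end may thus lie earlier and the gap to J be wider.
TRBV13-2/TRBJ2-7: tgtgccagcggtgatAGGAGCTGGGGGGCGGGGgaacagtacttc
TRBV13-2/TRBJ2-3: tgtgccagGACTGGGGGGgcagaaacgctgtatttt
TRBV13-1/TRBJ1-2: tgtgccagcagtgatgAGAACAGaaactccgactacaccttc
TRBV13-1/TRBJ2-4: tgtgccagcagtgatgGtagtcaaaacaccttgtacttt
The first of these led TRBV13-2 in both libraries and had 12 TRBD2 bases and 6 inserted nucleotides. TRBV13-2/TRBJ2-3 was next in the thymus, and was trimmed by 8 V bases, past the codon that marks the gene. The 2 TRBV13-1 junctions led that gene in the thymus and in the spleen, respectively. TRBV13-1/TRBJ2-4 had 1 base between V and J. A TRBV13-2 clonotype of 539 spleen reads differed from it at 1 base, and it was the 1 such neighbour found for the largest clonotypes of the 3 genes. That base is base 10, where the germline genes differ. The merging used as an alternative below takes no account of the V gene, so it can join clonotypes of different genes such as these.

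By clonotypes TRBV13-2 was the most used of the family and TRBV13-1 and TRBV13-3 were near each other, in both tissues. TRBV13-2 made up 9.63% of the thymus TCRβ clonotypes (95% Wilson interval 8.30 to 11.2) and, in spleen, 10.7% (9.45 to 12), and ranked 2 of 26 TRBV genes, after TRBV19, in each. TRBV13-1 made up 5.24% (4.27 to 6.43) and 5.04% (4.21 to 6.03). TRBV13-3 made up 5.55% (4.54 to 6.76) and 5.27% (4.41 to 6.27). The intervals of TRBV13-1 and TRBV13-3 overlap in both libraries, and that of TRBV13-2 lies above them. The family as a whole took 20.4% and 21% of the clonotypes.

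By reads the order was another one, and TRBV13-3 came far ahead. In the thymus TRBV13-3 had 470833 reads, TRBV13-2 had 55393 and TRBV13-1 had 32868. This was 26.4%, 3.11% and 1.84% of the TCRβ reads. In the spleen TRBV13-3 had 1622670 reads, TRBV13-2 had 45531 and TRBV13-1 had 41690, or 58.7%, 1.65% and 1.51%. By reads TRBV13-3 therefore took rank 2 of the 26 genes in thymus and rank 1 in spleen, and had 14.3 and 38.9 times the reads of TRBV13-1 from 1.06 and 1.04 times as many clonotypes.

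Leaving out the largest clonotype of each gene changed the picture of TRBV13-3 in the spleen more than in the thymus. Its share of the remaining reads was 16.6% in thymus and 5.75% in spleen, and its reads were 9.82 and 2.30 times those of TRBV13-1 without its own largest. The clonotype shares moved by little, to 5.49% and 5.22%. The ratio of the spleen share of reads to the thymus share was 2.22 for TRBV13-3 with all clonotypes and 0.346 without the largest, so its side of 1 depended on 1 clonotype. For TRBV13-1 the ratio was 0.818 with all and 0.733 without its own largest, and for TRBV13-2 it was 0.530 and 0.780. The totals behind these 4 values still hold TRBV13-3/TRBJ2-4, which had 11.7% of the thymus and 56.2% of the spleen TCRβ reads. Over the TCRβ reads without that clonotype, 1572827 in thymus and 1212106 in spleen, TRBV13-1 and TRBV13-2 each had the higher share in the spleen. Their side of 1 therefore depended on it too. The ratios of clonotype shares were 0.962, 1.11 and 0.949 for TRBV13-1, TRBV13-2 and TRBV13-3.

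**Figure D1:**
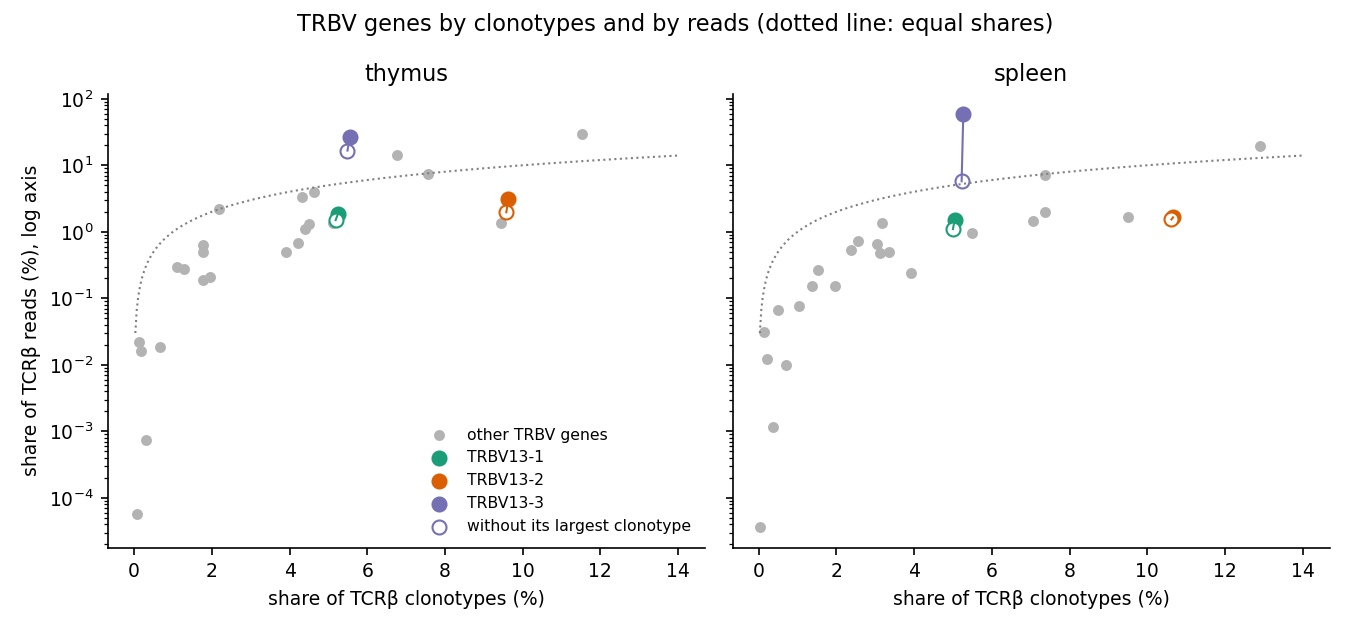
Each point is a TRBV gene, placed by its share of TCRβ clonotypes (horizontal axis, percent) and of TCRβ reads (vertical axis, percent, log scale), in thymus and spleen. Filled coloured points are the TRBV13 genes with all clonotypes and open ones the same genes without their largest clonotype. In the spleen TRBV13-3 drops from 58.7% to 5.75% of the reads while its share of clonotypes stays near 5%.

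The spread of reads over clonotypes differed between the genes. The typical clonotype was not larger in TRBV13-3 in the thymus, where the median was 118 reads, against 119 for TRBV13-1 and 59.5 for TRBV13-2. In the spleen the medians were 250.5, 171 and 116 reads. What set TRBV13-3 apart within the family was its top: the 3 largest clonotypes held 93.3% of its thymus reads and 97.5% of its spleen reads. Genes outside the family could be led by 1 clonotype too. For TRBV19 it had 475490 of 518200 thymus reads and 327215 of 542677 spleen reads. For TRBV20 it had 222857 of 252454 thymus reads, but 10532 of 54369 in the spleen. For TRBV13-1 the 3 largest held 34.6% and 40.8%, and for TRBV13-2 they held 63.9% and 13.1%. Evenness was summarised as an effective number, the exponentiated Shannon entropy of a gene's reads. For TRBV13-3 it was 4.05 in thymus and 1.37 in spleen. It was 30.6 and 32.8 for TRBV13-1. TRBV13-2 went the other way from TRBV13-3 between the libraries, with 13.5 in the thymus and 129.9 in the spleen. Without the largest clonotype TRBV13-3 had 3.60 and 26.5, and TRBV13-2 had 22.4 and 142.6.

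**Figure D2:**
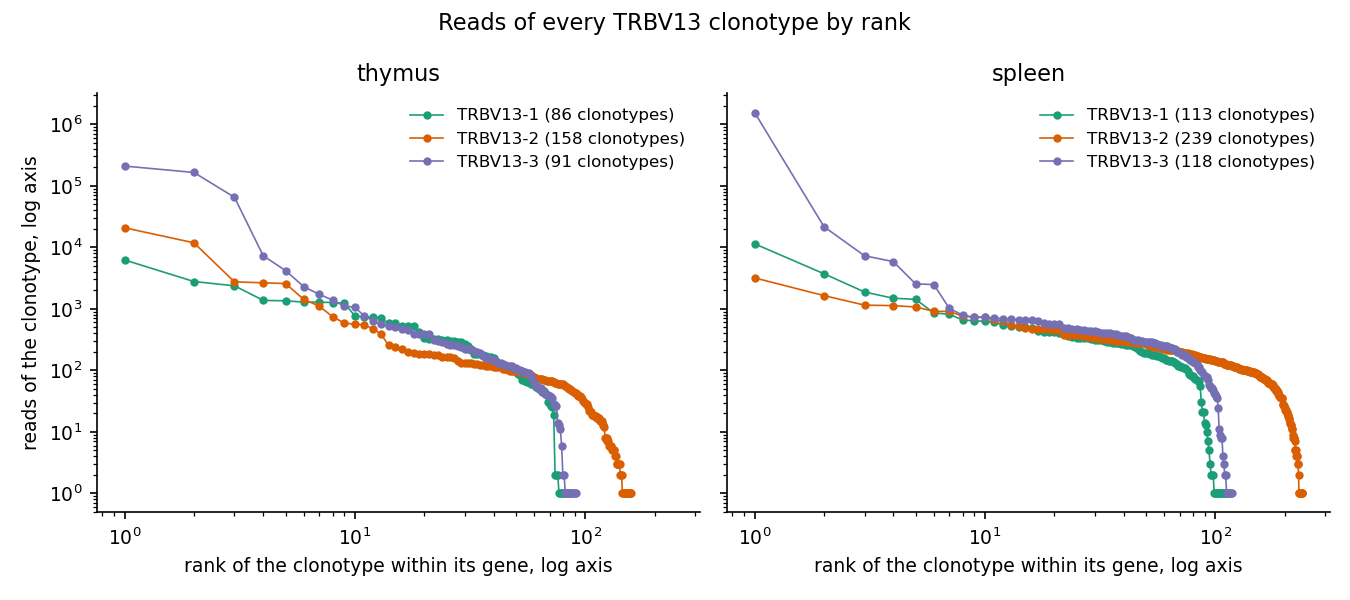
Reads of each TRBV13 clonotype (vertical axis, log scale) against its rank within its gene (horizontal axis, log scale), in thymus and spleen. In the thymus 3 TRBV13-3 clonotypes stand above the rest at 65094 to 209372 reads; in the spleen 1 stands alone at 1552980 reads.

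The largest clonotypes had different sizes in the 2 libraries. TRBV13-3/TRBJ2-4 had 209372 thymus reads, 11.7% of the TCRβ reads (11.7 to 11.8), and 1552980 spleen reads, 56.2% (56.1 to 56.2). TRBV13-3/TRBJ1-6 went the other way, with 164823 thymus reads (9.25%) and 21682 spleen reads (0.784%). So did TRBV13-3/TRBJ1-2, with 65094 (3.65%) and 7291 (0.264%). TRBV13-3/TRBJ1-5 was nearer to even, at 7284 (0.409%) and 5865 (0.212%). Of these 4 clonotypes of TRBV13-3, then, 1 had the higher share in the spleen and 3 in the thymus. TRBV13-3/TRBJ2-4 is in both totals and lowers the other shares more in the spleen. Over the reads without it, TRBV13-3/TRBJ1-5 had a slightly higher share in the spleen than in the thymus.

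The leading clonotypes of the other genes were smaller. TRBV13-2/TRBJ2-7 had 20791 thymus reads (1.17%) and 3185 spleen reads (0.115%). TRBV13-2/TRBJ2-3 had 11848 thymus reads and 4 spleen reads. TRBV13-1/TRBJ1-2 had 6235 thymus reads and 858 spleen reads. TRBV13-1/TRBJ2-4, the largest TRBV13-1 clonotype of the spleen, had 11410 reads there and 734 in the thymus. Among the 10 most abundant clonotypes of a gene, 3 of TRBV13-1, 2 of TRBV13-2 and 4 of TRBV13-3 were in that top group in both libraries.

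Counted by clonotypes, most TRBJ genes were used by each TRBV13 gene, and no TRBV13 gene was tied to 1 partner. Of the 12 TRBJ genes seen, each TRBV13 gene used 11 in the thymus, where TRBJ1-3 was the missing one. In the spleen TRBV13-1 and TRBV13-2 used 12, and TRBV13-3 used 11, lacking TRBJ2-2 (0 of 118, with an upper bound of 3.15%). TRBV13-1 was led by TRBJ2-5 in both libraries, with 18 of 86 thymus clonotypes (20.9%, 13.7 to 30.7) and 26 of 113 spleen clonotypes (23%, 16.2 to 31.6). Next came TRBJ2-1 in the thymus (16.3%) and TRBJ1-2 in the spleen (14.2%).

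TRBV13-2 was led by TRBJ1-2 in the thymus (32 of 158, 20.3%), followed by TRBJ2-1 (14.6%). In the spleen TRBJ2-7 came first (51 of 239, 21.3%) and TRBJ1-2 next (18%). TRBV13-3 was led by TRBJ1-2 in both libraries, with 22 of 91 clonotypes (24.2%, 16.5 to 33.9) and 22 of 118 (18.6%, 12.6 to 26.6). Its next partner was TRBJ2-5 in the thymus (14.3%) and TRBJ2-7 in the spleen (14.4%). In each library the intervals of a gene's 2 leading partners overlap, so the order within a gene is not resolved.

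**Figure D3:**
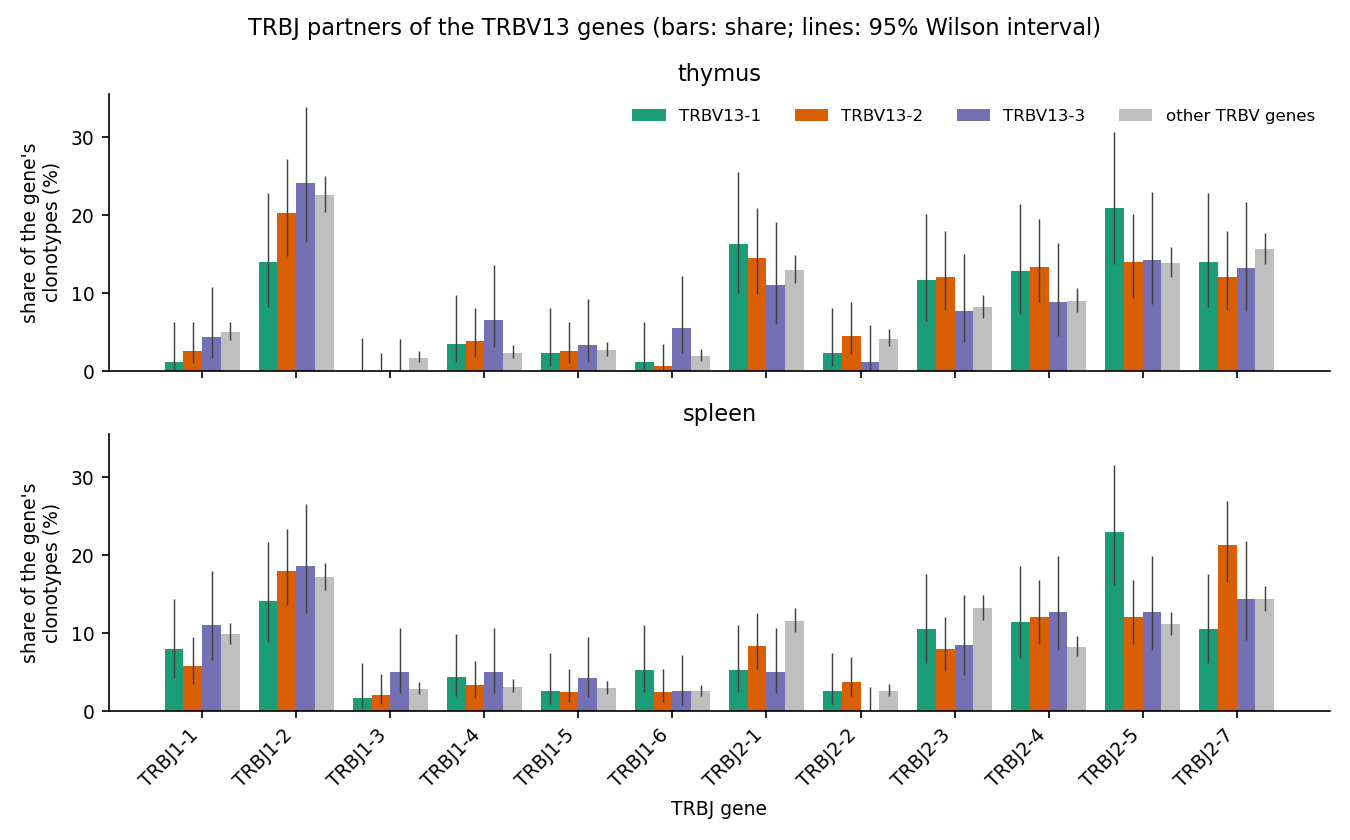
Share of each TRBV13 gene's clonotypes, and of those of all other TRBV genes, joined to each of 12 TRBJ genes (percent, bars from 0, with 95% Wilson intervals), in thymus and spleen. Over the 3 genes together TRBJ1-2 is the most used partner in both libraries (19.7% and 17.2%), and the intervals of the 3 genes overlap for most TRBJ genes.

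By reads the partners followed the largest clonotypes. TRBJ2-4 had 95.9% of the TRBV13-3 reads in the spleen and 3.44% once the largest clonotype was left out, when TRBJ1-6 (31.1%) and TRBJ1-2 (24.9%) led. In the thymus TRBJ2-4 had 44.8% and TRBJ1-6 had 35.1% of them, and without the largest TRBJ1-6 had 63.1% and TRBJ1-2 27.2%. For TRBV13-2 TRBJ2-7 led by reads with 45.5% in the thymus, followed by TRBJ2-3 with 25.7%, and with 23.9% in the spleen, followed by TRBJ1-2 with 20.4%. For TRBV13-1 the leaders were TRBJ1-2 (33.2%) and TRBJ2-1 (23.7%) in the thymus, and TRBJ2-4 (31.9%) and TRBJ1-2 (25.3%) in the spleen.

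The TRBJ genes fall into 2 clusters, each behind its own D segment, and the share of clonotypes joined to the TRBJ2 cluster was compared between each TRBV gene and all other TCRβ clonotypes of its library. In the thymus TRBV13-1 lay higher, with 67 of 86 clonotypes (77.9%, 68.1 to 85.4) against 64.0% of the others (adjusted p = 0.0385 by Fisher's exact test, two-sided, with Benjamini-Hochberg adjustment over all TRBV genes with at least 20 clonotypes in a library, both libraries together). This was the 1 of 3 TRBV13 genes past the threshold of 0.05, where 20% of the 20 genes tested passed in the thymus. The difference stayed between 12 and 15.1 points in the 6 alternatives, while the call was lost in 4 of them, with an adjusted p of 0.206 for productive clonotypes alone. In the spleen 72 of 113 TRBV13-1 clonotypes (63.7%) were joined to the cluster against 61.4%, and 0 of the 3 genes passed, where 20% of 20 genes did. TRBV13-2 had 70.3% and 65.7% in thymus and spleen. TRBV13-3 had the lowest shares of the family, 56.0% and 53.4%.

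Between the members, TRBV13-1 had a higher TRBJ2 share than TRBV13-3 in the thymus by 21.9 points (95% interval 8.0 to 34.5, adjusted p = 0.0150 by Fisher's exact test, adjusted over 24 pair tests). With at least 10 reads the difference was 21.6 points with an adjusted p of 0.0591. TRBV13-2 against TRBV13-3 differed by 14.2 points in thymus (1.89 to 26.4) and 12.3 in spleen (1.56 to 22.9), with an adjusted p of 0.0963 for each by the same exact test. TRBV13-1 against TRBV13-3 in the spleen differed by 10.3 points, with an interval of -2.36 to 22.5. Without the largest clonotype the TRBV13-3 shares were 55.6% and 53.0%.

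TRBV13-2 stood out by reading frame. A clonotype was called productive when its CDR3 had no frameshift and no stop codon, and each clonotype counted once whatever its reads. In the thymus 136 of 158 TRBV13-2 clonotypes were productive (86.1%, 79.8 to 90.6) against 71.3% of all other TCRβ clonotypes, a difference of 14.8 points (adjusted p = 0.000433, Fisher's exact test adjusted as above). In the spleen 221 of 239 were productive (92.5%, 88.4 to 95.2) against 74.2%, a difference of 18.3 points (adjusted p = 1.28e-10 by the same exact test). It was the 1 member past the threshold in either library, where 20% of 20 genes passed in the thymus and 25% of 20 in the spleen. These percentages count calls in either direction. The median difference over the 20 genes was 3.96 points in the thymus and 1.66 in the spleen. The productive share of TRBV13-2 ranked 1 of the 20 genes in the spleen and 2 in the thymus, after TRBV26 with 25 of 29. The next gene in the spleen, TRBV2, was close, with 80 of 88 (90.9%), and also passed the threshold (adjusted p = 0.00277, exact test).

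The other members lay between TRBV13-2 and the pooled share of the other TCRβ clonotypes, but not above all other genes. Among the 20 genes TRBV13-1 ranked 9 in both libraries, and TRBV13-3 ranked 6 in thymus and 5 in spleen. TRBV13-1 had 66 of 86 productive thymus clonotypes (76.7%, 66.8 to 84.4) and 90 of 113 from spleen (79.6%, 71.3 to 86.0). TRBV13-3 had 72 of 91 (79.1%, 69.7 to 86.2) and 99 of 118 (83.9%, 76.2 to 89.4). Neither passed the threshold in either library, with adjusted p of 0.109 to 0.608 by Fisher's exact test. The neighbouring genes TRBV12-1 and TRBV12-2 had 72.4% each in thymus, with 74.2% and 82.6% in spleen, none past the threshold.

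**Figure D4:**
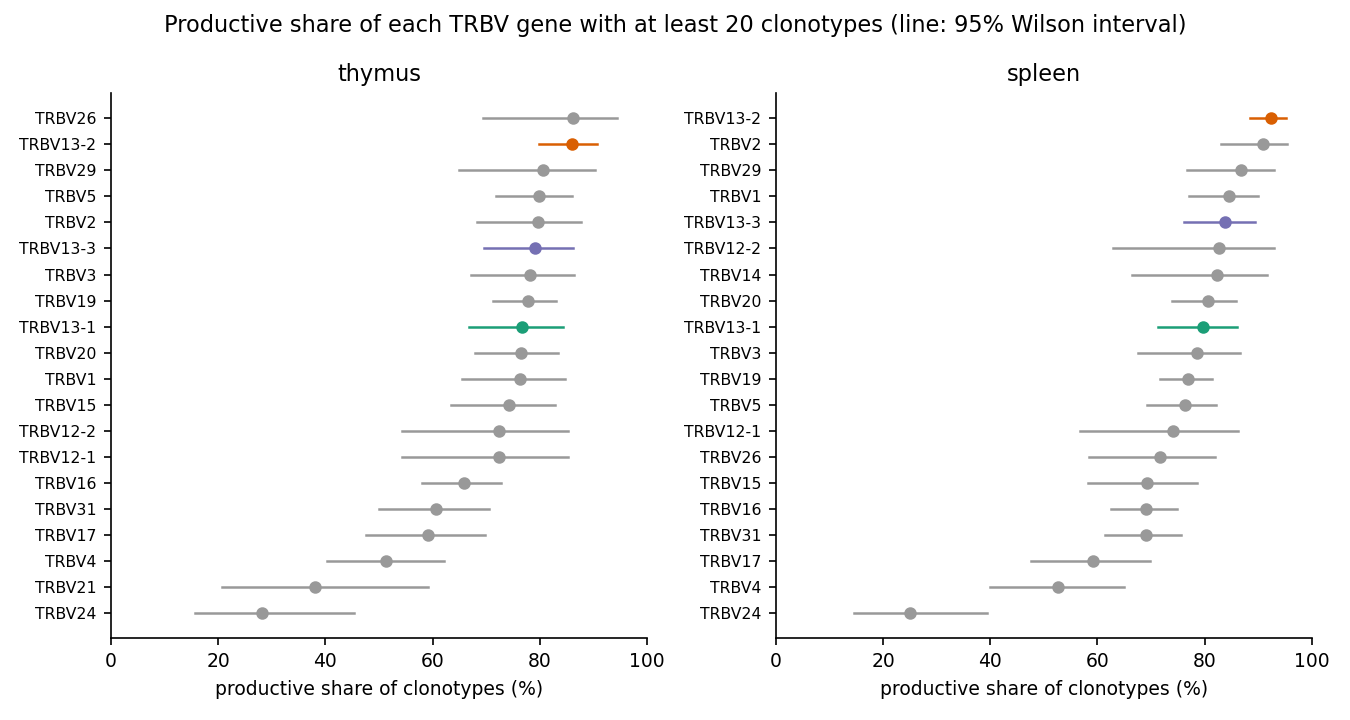
Productive share of clonotypes (horizontal axis, percent, from 0) of each TRBV gene with at least 20 clonotypes, ordered by that share, in thymus and spleen, with 95% Wilson intervals. The TRBV13 genes are coloured; TRBV13-2 is at the top in the spleen (92.5%) and next to the top in the thymus (86.1%), with TRBV13-3 and TRBV13-1 below it.

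Compared directly, TRBV13-1 was below TRBV13-2 in the spleen, with a difference of -12.8 points (-21.6 to -5.25, adjusted p = 0.0137 by Fisher's exact test over 24 pair tests). That call did not hold with at least 2 reads, where the difference was -5.72 points (adjusted p = 0.293, exact test), with at least 10 reads (-5.31 points), or without tied V genes (-9.29 points). In the thymus TRBV13-1 minus TRBV13-2 was -9.33 points, with an interval of -20.3 to 0.565. Against TRBV13-3, TRBV13-2 was higher by 6.96 points in the thymus (-2.50 to 17.4) and by 8.57 in the spleen (1.70 to 16.7, adjusted p = 0.0776 by the exact test).

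Most non-productive TRBV13 clonotypes were frameshifts, 60 in the thymus and 56 in the spleen, against 1 and 4 with a stop codon. They were small. The median was 62, 9.5 and 91 reads for TRBV13-1, TRBV13-2 and TRBV13-3 in the thymus, against 168.5, 61.5 and 156 for productive clonotypes. In the spleen it was 3, 22 and 39, against 230.5, 125 and 291. By reads, productive clonotypes therefore made up 90.5%, 98.0% and 99.7% in thymus and 98.1%, 98.7% and 99.9% in spleen. The genes' order by reads thus did not follow that by clonotypes. Without the largest clonotype of each gene, the shares were 88.2%, 96.7% and 99.4% in thymus and 97.3%, 98.6% and 98.2% in spleen. The spleen order then followed that by clonotypes, while the thymus order did not. The largest non-productive clonotype, TRBV13-1 with TRBJ2-1, had 1286 thymus reads.

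The productive junctions of the 3 genes had near lengths. The median was 42 nucleotides for every gene in both libraries. In the thymus the mean was 42.6 ± 5.80 nucleotides (SD over 66 clonotypes) for TRBV13-1, 42.6 ± 5.24 (136 clonotypes) for TRBV13-2 and 40.5 ± 4.50 (72 clonotypes) for TRBV13-3. In the spleen it was 41.6 ± 5.08, 41.5 ± 5.34 and 41.2 ± 5.03 over 90, 221 and 99 clonotypes. The difference of 2.08 nucleotides between TRBV13-2 and TRBV13-3 in the thymus had an adjusted p of 0.0589 (permutation test of the means, two-sided, adjusted over 18 tests). It passed the threshold without the largest TRBV13 clonotype, with 2.14 nucleotides and an adjusted p of 0.0403 by permutation, and after merging near-identical clonotypes (adjusted p = 0.0464). No other length difference passed.

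Inserted nucleotides were counted in productive clonotypes with an assigned D segment. TRBV13-1 had a mean of 3.0 ± 2.29 in the thymus (46 clonotypes) and 2.43 ± 2.25 in the spleen (58). TRBV13-2 had 3.14 ± 2.46 (99) and 2.26 ± 2.23 (141). TRBV13-3 had 2.22 ± 2.39 (46) and 2.27 ± 2.26 (70). None of the 6 differences of means passed after adjustment (permutation test, 1 with an unadjusted p under 0.05, that of TRBV13-2 and TRBV13-3 in the thymus, 0.924 nucleotides, adjusted p = 0.105).

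Junctions without any insertion as aligned were more frequent in TRBV13-3 than in the other thymus clonotypes. They made up 18 of 46 (39.1%, 26.4 to 53.5) against 17.9% of the others, a difference of 21.3 points (adjusted p = 0.0417, Fisher's exact test). TRBV13-3 was the 1 gene past the threshold among the 14 tested (7.14%), and TRBV13-1 had 4 of 46 (8.70%) and TRBV13-2 had 15 of 99 (15.2%). The call depended on 1 clonotype, since without TRBV13-3/TRBJ2-4 the share was 17 of 45 (37.8%) and the adjusted p was 0.0718. TRBV13-1 was lower than TRBV13-3, with a difference of -30.4 points (-45.8 to -13.2, adjusted p = 0.0137 by the exact test), and so was TRBV13-2, with -24.0 (-39.5 to -8.75, adjusted p = 0.0150). The latter had an adjusted p of 0.0591 with at least 10 reads. In the spleen the 3 genes had 25.7%, 20.7% and 26.2% for TRBV13-3, TRBV13-1 and TRBV13-2, and 0% of 15 genes passed (2 had an unadjusted p under 0.05). For TRBV13-2 minus TRBV13-3 there the interval of the difference ran from -12.6 to 12.3 points. Palindromic bases did not count as inserted. In the thymus, 18 of 59 TRBV13-3, 22 of 57 TRBV13-1 and 35 of 116 TRBV13-2 clonotypes with a D, in any frame, had palindromic D bases. How many junctions without insertion hold such bases was not counted.

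As aligned, TRBV13-2 had the lowest mean trimming of the V end among the 3 genes. In the spleen TRBV13-2 lost 1.55 ± 1.71 nucleotides (221 productive clonotypes) and TRBV13-3 lost 2.44 ± 2.0 (99), a difference of -0.897 (adjusted p = 0.00216, permutation test). In the thymus the values were 1.62 ± 1.84 and 2.36 ± 2.08, a difference of -0.743 (adjusted p = 0.0649, permutation test; 0.0498 without the largest clonotype). TRBV13-1 lay between them with 2.11 ± 2.07 in the thymus and 2.09 ± 2.18 in the spleen. Palindromic bases are copied back from the opened end, and V bases aligned past the germline end were counted as such. They were found in 30.9% and 30.8% of the productive TRBV13-2 clonotypes in thymus and spleen. The share was 16.7% and 22.2% for TRBV13-1 and 12.5% and 12.1% for TRBV13-3. Some are overruns of the alignment. In a TRBV13-2 thymus clonotype of 1424 reads V was aligned 11 bases past its end, with a gap of -12 to J. All such clonotypes count as untrimmed, and how far this lowers the mean trimming was not tested.

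The same junction with the same V gene was found in both libraries for 74 TRBV13 clonotypes, 16 with TRBV13-1, 34 with TRBV13-2 and 24 with TRBV13-3. These were 18.6%, 21.5% and 26.4% of the thymus clonotypes of each gene, and 14.2%, 14.2% and 20.3% of those of the spleen. None of the 3 genes differed from the other TCRβ clonotypes in either library (Fisher's exact test, lowest unadjusted p = 0.237), where 0% of 20 genes passed in the thymus (1 had an unadjusted p under 0.05) and 5% in the spleen. By reads the shared clonotypes weighed more. In TRBV13-3 the clonotypes found in both had 96.9% of its thymus reads and 98.4% of its spleen reads, and 94.4% and 63.2% without the largest. In TRBV13-2 they had 83.2% and 30.9%, and in TRBV13-1 41.3% and 47.3%. Without the largest clonotype of the gene and library, these were 73.1% and 25.7% for TRBV13-2 and 27.6% and 27.4% for TRBV13-1.

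Reads of a shared clonotype often differed between the libraries. Of the 74, 35 had the higher share of TCRβ reads in the spleen and 39 in the thymus. There were 12 with 1 read in the thymus, 9 of them with at least 100 spleen reads, and 4 with 1 read in the spleen. At least 100 reads in both were reached by 30. The median ratio of spleen to thymus share was 1.11 for TRBV13-1, 0.686 for TRBV13-2 and 2.45 for TRBV13-3. All these shares are over totals that hold TRBV13-3/TRBJ2-4, with 56.2% of the spleen and 11.7% of the thymus TCRβ reads. It lowers the other shares more in the spleen, so the counts and ratios depend on it. The largest clonotype found in 1 library alone was a TRBV13-1 clonotype in each case, with 2780 thymus reads (TRBJ2-1) and 3719 spleen reads (TRBJ1-2). Carry-over of reads between the libraries was not tested.

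**Figure D5:**
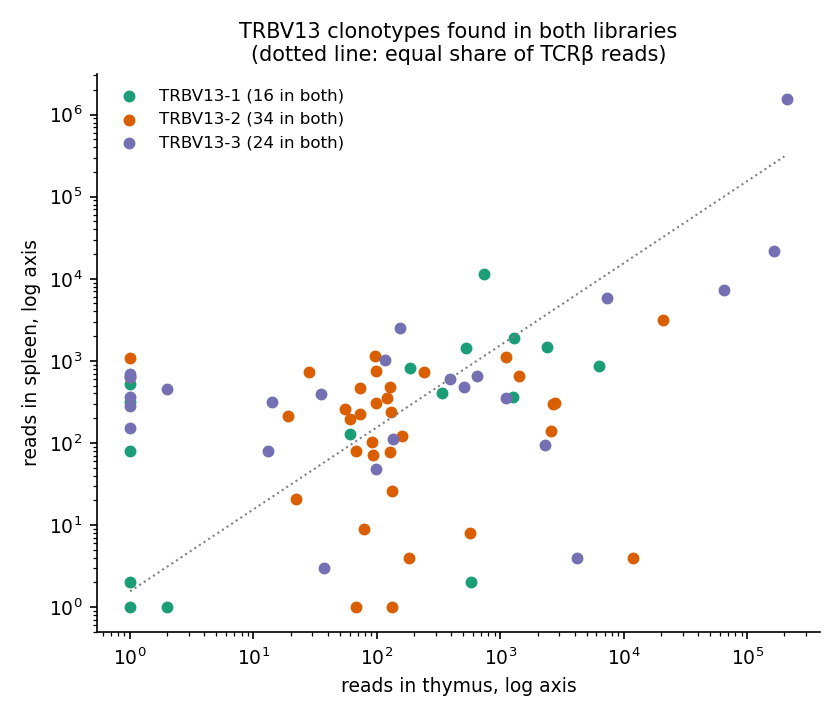
Each point is a TRBV13 clonotype found in both libraries, placed by its reads in the thymus (horizontal axis, log scale) and in the spleen (vertical axis, log scale); the dotted line marks an equal share of the TCRβ reads. The point at the top right is TRBV13-3/TRBJ2-4 (209372 and 1552980 reads), and 12 points lie at 1 thymus read.

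By partner profile the members were not each other's nearest genes in every case. The distance between the TRBJ profiles of 2 genes (0.5 times the summed absolute difference of clonotype shares, in points, averaged over both libraries) was taken to the 13 other genes with at least 50 clonotypes in both libraries. TRBV13-1 was nearest to TRBV13-2 (15.4 points) and then TRBV15 (17). TRBV13-2 was nearest to TRBV15 (13.4) and then TRBV13-3 (14.9). TRBV13-3 was nearest to TRBV1 (13.5) and then TRBV15 (14.4), while TRBV13-1 was 19.98 points from it. The same gene differed between thymus and spleen by 16.6 points for TRBV13-1 and TRBV13-2 and by 18.6 for TRBV13-3. For TRBV13-2 and TRBV13-3 these values exceed the distances to both genes nearest in profile.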

How the data were processed

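TCR transcripts of 2 libraries were amplified with the SMARTer Mouse TCR a/b Profiling Kit and sequenced on a MiSeq (2 × 250 cycles), and the authors assembled clonotypes with MiXCR 2.1.12, per the paper's methods. The deposited tables give each clonotype's read count, without normalization, and its fraction of the library's reads, with both chains in the total. Only counts were used further, and shares were computed over TCRβ, taken as the clonotypes whose first J gene is a TRBJ gene. The genome build was not given in the sources used here, and GRCm38 annotation (GENCODE M21) was used for the positions and germline sequences.

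Each clonotype counted once, in any frame. Ends of V, D and J came from the alignment positions in the tables, and palindromic bases count as V, D or J and not as inserted. Shares were compared by Fisher's exact test, two-sided, and means by permutation (100000 resamples), within a library, with Benjamini-Hochberg adjustment and a threshold of 0.05; clonotypes are the units, so these p-values describe the library and not mice. Intervals are 95% Wilson intervals, and Newcombe intervals for differences. Named were the 3 members, their 3 leading clonotypes and 2 leading TRBJ genes, clonotypes in the top 10 of both libraries, the neighbours TRBV12-1 and TRBV12-2, TRBV19 in rankings, and the 2 genes of nearest TRBJ profile; TRBV26, TRBV2, the TRBV13-3/TRBJ1-5 clonotype in the sequence list and the 1-base neighbour of 539 reads were added after their values were seen. The largest clonotypes of TRBV19 and TRBV20 were also added after their values were seen. Members and lists were chosen with earlier results of these data known. The alternatives tried were minima of 2 and 10 reads, productive clonotypes only, all frames, tied V genes left out, merging of clonotypes 1 nucleotide apart and at least 20 times apart in reads, matching by CDR3 alone, chain by V gene, weighting by reads and leaving out the largest clonotype; the last, for the tests, and all those of V trimming were added after seeing the data. The tests and the merging were checked on simulated data. Python 3.11.15, pandas 2.3.3 and scipy 1.17.1 were used.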

Additional observations from a re-analysis of the deposited data

How the results depend on the processing

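The productive share of TRBV13-2 stayed past the threshold in both libraries under the 5 alternatives run for it, with differences of 14.6 to 15.7 points in the thymus and 15.9 to 18.3 in the spleen. The same held for V trimming of TRBV13-2 against TRBV13-3 in the spleen (-0.922 to -0.816 nucleotides). With productive clonotypes alone the family had 23% and 24% of the clonotypes and 33.9% and 66.4% of the reads, in thymus and spleen. Without the largest TRBV13 clonotype it had 22.2% and 12.9% of the reads, and without the largest TCRβ clonotype 42.8% and 12.9%.

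Of the TRBV genes compared by TRBJ2 share, 4 in each library passed, against 2 in the thymus for productive clonotypes, and 2, 2 and 1 in the spleen for at least 2 reads, at least 10 reads and productive clonotypes. By junctions without insertion 1 gene passed in the thymus and 0 in the spleen, against 2 and 2 with all frames, and 0 in the thymus without the largest TRBV13 clonotype. By sharing 1 gene passed in the spleen, against 0 after merging, for productive clonotypes and for matching whatever the V gene. Of the 24 pair tests of shares 4 passed, and 1 with at least 10 reads. Of the 18 tests of means 1 passed, 2 after merging and 3 without the largest clonotype. The cause of these changes was not tested.

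Differences that changed sign were small, and none was past the threshold before or after. Against the rest, the TRBJ2 share of TRBV13-1 in the spleen was -0.275 points with at least 2 reads. The share without insertion in the spleen was -0.266 points for TRBV13-2 after merging, and for TRBV13-3 it was -0.586 with at least 10 reads and -0.992 without the largest clonotype. Sharing of TRBV13-2 in the thymus was 1.42 points with at least 10 reads. Between members, the productive share of TRBV13-1 minus TRBV13-3 was 1.25 points in the thymus with at least 10 reads, and 0.368 and 1.63 in the spleen with at least 2 and 10. TRBV13-2 minus TRBV13-3 without insertion in the spleen was -0.193 with at least 2 reads and -0.352 after merging, and in sharing in the thymus 0.975 with at least 10 reads. CDR3 length of TRBV13-1 minus TRBV13-2 in the thymus was -0.0551 nucleotides without ties. Their inserted nucleotides there differed by 0.0137 with at least 10 reads and 0.249 with all frames, and those of TRBV13-2 minus TRBV13-3 in the spleen by 0.0112 after merging and 0.000155 with all frames.

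Depth was not the limit for the leading clonotypes, while those of 1 read, 34 in the thymus and 31 in the spleen, cannot be told from errors or carry-over. No paired analysis was possible because each tissue had 1 library.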

Other observations

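A D segment was assigned to 232 of 335 TRBV13 clonotypes in the thymus (69.3%) and 305 of 470 in the spleen (64.9%). Among these TRBD2 had 69.8% of the TRBV13-2 clonotypes in the thymus (81 of 116) and 38.8% in the spleen (59 of 152). Over the other TRBV genes the share was 58.5% and 44.6%, so that it was lower in the spleen there too. For TRBV13-1 it had 52.6% and 44.1%, and for TRBV13-3 42.4% and 43.5%. TRBD2 lies downstream of the TRBJ1 cluster, and a direct deletional join between them is not known. Such an assignment was nevertheless made for 8 TRBV13 clonotypes in the thymus, with 36 reads in all, and for 3 in the spleen, with 670 reads.

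The constant gene listed for the TRBV13 clonotypes was TRBC2 for 333 in the thymus and 464 in the spleen, and TRBC1 for 0, also where the J gene was of the TRBJ1 cluster (105 and 176 clonotypes). The constant gene was therefore not used.

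TRBV13-2 differs from the other members in codon 4 of the germline CDR3. A CDR3 protein common to it and another member needs a V trimmed into that codon, or a non-germline base there. In the thymus 2 CDR3 proteins were common to TRBV13-1 and TRBV13-3, and in the spleen 1 was common to TRBV13-2 and TRBV13-3. A spleen TRBV13-3 clonotype of 55 reads lacked the germline base of its gene in that codon. Whether the shared spleen protein came from trimming or from such a base was not tested. Within TRBV13-2, 6 of 130 CDR3 proteins in the thymus and 11 of 209 in the spleen were encoded by more than 1 nucleotide sequence. In the spleen this number was 0 for TRBV13-1 and for TRBV13-3, and in the thymus it was 2 and 3.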
